A study of Mus musculus with 4 samples.

Results

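The mature arms of the mouse miR-203 and miR-205 hairpins were followed in small RNA of exosome preparations from the plasma of tumour-bearing mice. The set has 3 members, mmu-miR-203-3p, mmu-miR-203-5p and mmu-miR-205-5p, of 1809 miRNAs listed for both pool numbers. They were chosen by their measured values, because miR-203 and miR-205 were higher in gp49B-/- than in wild type libraries in both pools. The comparison of genotypes is therefore a description for these members and carries no test. All mice were C57BL/6, received LLC cells (Lewis lung carcinoma, a line of mouse tumour cells) by i.v. injection, and were killed on day 21. Wild type (WT) mice were compared with gp49B-/- (KO) mice, which lack an inhibitory receptor of myeloid cells. Each genotype had 2 libraries, named pool 1 and pool 2, and a library combined plasma from 3 mice in WT and 4 in KO, if each plasma sample came from its own mouse. Spread between single mice was thus not measured, the number pooled followed genotype, and the labels do not say what the pool number stands for or give an age. No mRNA was measured, so the loss of gp49B was not checked.

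A miRNA hairpin is cut into a duplex of a 5p and a 3p arm, of which usually the guide arm is kept by an Argonaute protein while its partner is lost. The guide finds mRNAs mainly through its seed, bases 2 to 8 from the 5′ end. In skin, miR-203 is a miRNA of the suprabasal keratinocytes and limits the stem cell factor p63, and miR-205 is a miRNA of basal cells of stratified and glandular epithelia, where it is known for restraining ZEB1 and ZEB2 together with the miR-200 family. Neither is particular to keratinocytes, since other epithelia make them too.

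The sequences of both hairpins and of their mature arms show which strand each count belongs to. They were taken from RefSeq (GRCm38.p6), which held all 3 members and the partner arm mmu-miR-205-3p, and the deposited loci of these 4 arms were identical to those of RefSeq. In the hairpins, capitals mark the mature arms, with the 5p arm first.
Mir203: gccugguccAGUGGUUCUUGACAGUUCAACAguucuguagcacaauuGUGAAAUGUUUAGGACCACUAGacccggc
Mir205: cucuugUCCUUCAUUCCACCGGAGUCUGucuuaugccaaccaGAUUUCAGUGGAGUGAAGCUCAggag
In the mature arms, capitals mark the seed.
mmu-miR-203-3p: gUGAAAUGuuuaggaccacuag
mmu-miR-203-5p: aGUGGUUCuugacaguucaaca
mmu-miR-205-5p: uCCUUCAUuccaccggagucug
mmu-miR-205-3p: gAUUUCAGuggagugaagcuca
The 4 seeds differ, and none of them occurs at bases 2 to 8 of another of the 1679 mature mouse miRNA names searched. Each arm has 22 bases, with a GC content of 40.9% for both arms of miR-203, 54.5% for miR-205-5p and 45.5% for miR-205-3p.

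On GRCm38 the Mir203 hairpin lies at chr12:112130880-112130955 on the plus strand, with miR-203-5p at chr12:112130889-112130910 and miR-203-3p at chr12:112130927-112130948. Apart from Mir203 itself, GENCODE vM21 places no gene over the hairpin. The nearest protein-coding genes are Aspg, which ends 3321 bases before it, and Kif26a, which starts 15253 bases after it. The Mir205 hairpin lies at chr1:193507463-193507530 on the minus strand, with miR-205-5p at chr1:193507503-193507524 and miR-205-3p at chr1:193507467-193507488, in exon 2 of the long noncoding RNA 4631405K08Rik (Mir205hg). The members therefore come from 2 separate loci, and miR-203-3p and miR-203-5p from a single hairpin.

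Both guide arms were among the abundant miRNAs and both were counted more in KO. Molecules were counted by UMIs (unique molecular identifiers), which label each RNA copy before amplification. For miR-203-3p the UMIs numbered 3239 (WT) and 7693 (KO) in pool 1, and 1646 and 3851 in pool 2. The KO library was the higher within each pool number, yet by raw counts WT pool 1 lay close to KO pool 2. As CPM, counts scaled to library size with TMM, a method that assumes most miRNAs do not differ, the levels were 1210 (WT) and 2993 (KO) in pool 1 and 906 and 1552 in pool 2, and the genotypes did not overlap. As a share of all miRNA UMIs they did overlap, at 0.205% (WT) and 0.450% (KO) in pool 1 against 0.0519% and 0.106% in pool 2. By rank, miR-203-3p was number 47 (WT) and 34 (KO) in pool 1, and number 65 and 53 in pool 2.

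For miR-205-5p, the WT libraries held 4208 (pool 1) and 5167 (pool 2) UMIs, and the KO libraries 8908 (pool 1) and 12838 (pool 2). Both KO libraries lay above both WT libraries by raw counts, by TMM-scaled level (WT 1571 and 2843 CPM, KO 3465 and 5174 CPM) and by share of miRNA UMIs (WT 0.267% and 0.163%, KO 0.521% and 0.354%). It held ranks 43 and 41 among miRNAs of the WT libraries, and ranks 32 and 30 among those of the KO libraries. In each of the 4 libraries miR-205-5p was the more abundant of the guide arms. Ligation and amplification can favour some sequences, so an order of levels between miRNAs is an order of counts.

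The size of the difference was similar for both guide arms. The KO over WT ratio of miR-203-3p was 2.47 in pool 1 (exact 95% interval 2.37 to 2.58) and 1.71 in pool 2 (1.62 to 1.82), and that of miR-205-5p was 2.21 (2.13 to 2.29) and 1.82 (1.76 to 1.88). These intervals, like those below, cover counting error only. With scaling on total UMIs the ratios were 2.19 and 2.04 for miR-203-3p and 1.95 and 2.17 for miR-205-5p, so which pool had the larger ratio changed for miR-205-5p. Over both pools, the mean level was 1058 ± 215 CPM in WT and 2272 ± 1019 CPM in KO for miR-203-3p (SD, n = 2 each), and the edgeR log2 fold change was 1.10 (SE 0.69). For miR-205-5p it was 2207 ± 899 CPM in WT and 4320 ± 1208 CPM in KO (SD, n = 2 each), and the log2 fold change was 0.97 (SE 0.74). Leaving out KO pool 1 lowered the estimate of miR-203-3p to 0.57 and raised that of miR-205-5p to 1.25. The estimate of miR-205-5p without the WT library of pool 1 was 0.63, without that of pool 2 it was 1.46, and without KO pool 2 it was 0.65.

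**Figure D1:**
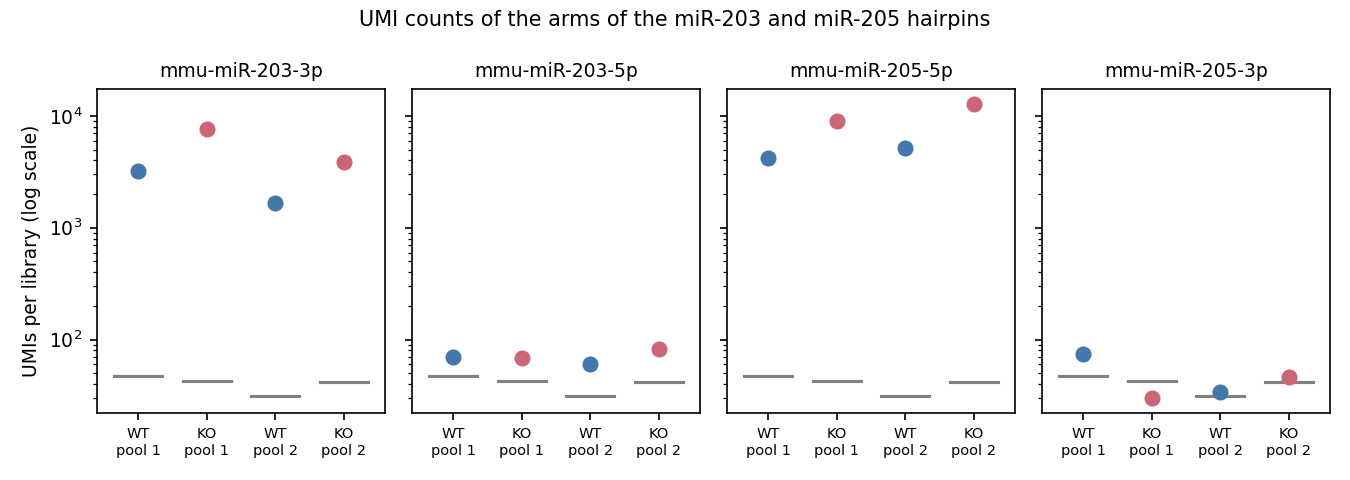
UMI counts (log axis) of the 4 mature arms in each library, with WT in blue and KO in red, where each point is 1 library and the grey bar is the median over the 1809 miRNAs in that library. The guide arms miR-203-3p and miR-205-5p lie between 1646 and 12838 UMIs with KO above WT within each pool number, and their partner arms lie between 30 and 83 UMIs, near the median.

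The partner arm did not share this difference. miR-203-5p, the strand of the miR-203 duplex that is usually lost, had 70 (WT) and 68 (KO) UMIs in pool 1, and 60 and 83 in pool 2. The 4 libraries lay close together and the genotypes overlapped, at 26.1 (WT) and 26.4 (KO) CPM in pool 1 and at 33.0 and 33.4 CPM in pool 2. Its ratios were 1.01 in pool 1 (0.714 to 1.43) and 1.01 in pool 2 (0.718 to 1.44). Its log2 fold change was 0.02 (SE 0.43). Of the 3 members it is thus the nearest to the border of the rule, and with scaling on total UMIs its pool 1 ratio was 0.896, outside it. The partner arm miR-205-3p lay outside the rule, with ratios of 0.417 in pool 1 (0.263 to 0.644) and 0.991 in pool 2 (0.622 to 1.59).

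All 3 members passed edgeR's filter on low counts, and all 3 had TMM ratios above 1 in both pools. The background for this count is 24.5% of the 1780 miRNAs with UMIs in every library, or 30.7% of the 352 averaging at least 100 UMIs. As the ratios chose the members, nothing is read from the count. Of those 352, 13 had a larger ratio than miR-203-3p and 19 than miR-205-5p in pool 1, and 9 and 6 in pool 2, against medians of 1.08 in pool 1 and 0.979 in pool 2. Ratios of at least 2.21 in pool 1 together with at least 1.71 in pool 2 were found for the guide arms and for miR-206-3p, which skeletal muscle makes, named here after its values were seen.

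**Figure D2:**
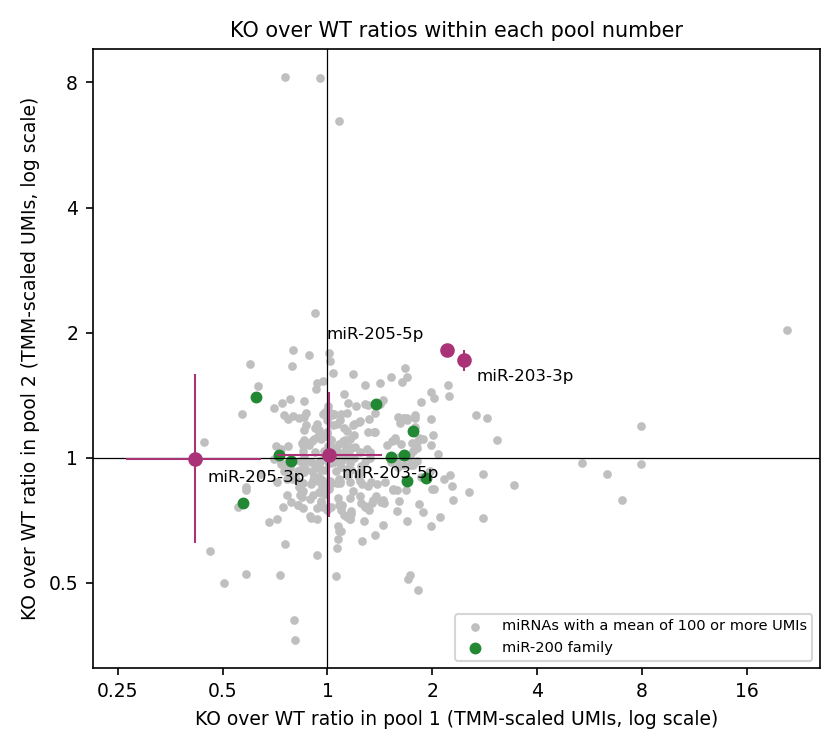
KO over WT ratio of TMM-scaled UMIs in pool 1 (x, log axis) against pool 2 (y, log axis) for 352 miRNAs averaging at least 100 UMIs (grey), the 10 arms of the miR-200 family (green) and the 4 arms of miR-203 and miR-205 (purple, with exact 95% intervals for counting error). The guide arms lie at 2.47 and 1.71 (miR-203-3p) and at 2.21 and 1.82 (miR-205-5p), while miR-203-5p lies at 1.01 on both axes.

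Ratios between arms of a hairpin within a library need no scaling. The guide arms were chosen as higher in KO, so the differences between genotypes in these ratios are a description. Per UMI of miR-203-5p pool 1 held 46.3 UMIs of miR-203-3p in its WT library (36.5 to 59.5) and 113 in its KO library (89.1 to 146), and pool 2 held 27.4 (21.2 to 36.1) and 46.4 (37.3 to 58.4). The KO library had the higher value within each pool number, but WT pool 1 and KO pool 2 were alike. For miR-205 the rare arm was miR-205-3p, with 75 (WT) and 30 (KO) UMIs in pool 1, and 34 and 46 in pool 2. Its ratio was 0.417 in pool 1 (0.263 to 0.644), in the opposite direction from miR-205-5p, and its log2 fold change over both pools was -0.64 (SE 0.43), not called by edgeR (adjusted p = 0.9999). Per UMI of miR-205-3p the WT libraries held 56.1 (44.7 to 71.5, pool 1) and 152 (109 to 220, pool 2) UMIs of miR-205-5p, and the KO libraries 297 (208 to 440, pool 1) and 279 (209 to 381, pool 2). Both KO values were above both WT values, with intervals that overlapped in pool 2. Counts of 30 to 83 UMIs are close to those of a typical miRNA in these libraries, whose median lay between 31 and 47 UMIs. Whether counts at that level come from the arm itself was not tested.

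The guide arms differed from each other by pool number, which the choice of members did not use. UMIs of miR-205-5p per UMI of miR-203-3p were 1.30 (WT, 1.24 to 1.36) and 1.16 (KO, 1.12 to 1.19) in pool 1, against 3.14 (WT, 2.97 to 3.32) and 3.33 (KO, 3.22 to 3.46) in pool 2. Read counts gave 1.21, 1.11, 2.99 and 3.14 in the same order. The pool numbers were far apart and the genotypes near each other: on the log2 scale pool 2 exceeded pool 1 by 1.27 in WT and 1.53 in KO, and KO minus WT was -0.17 in pool 1 and 0.09 in pool 2. A two-sided exact permutation test of the mean difference of 1.40 gave p = 0.333, the smallest value this test can give with 2 against 2 libraries. In both genotypes the difference between pool numbers was larger than that between genotypes in either pool. Both guide arms were chosen as higher in KO, which makes a small genotype difference in their ratio more likely. Nothing is therefore read from that order.

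**Figure D3:**
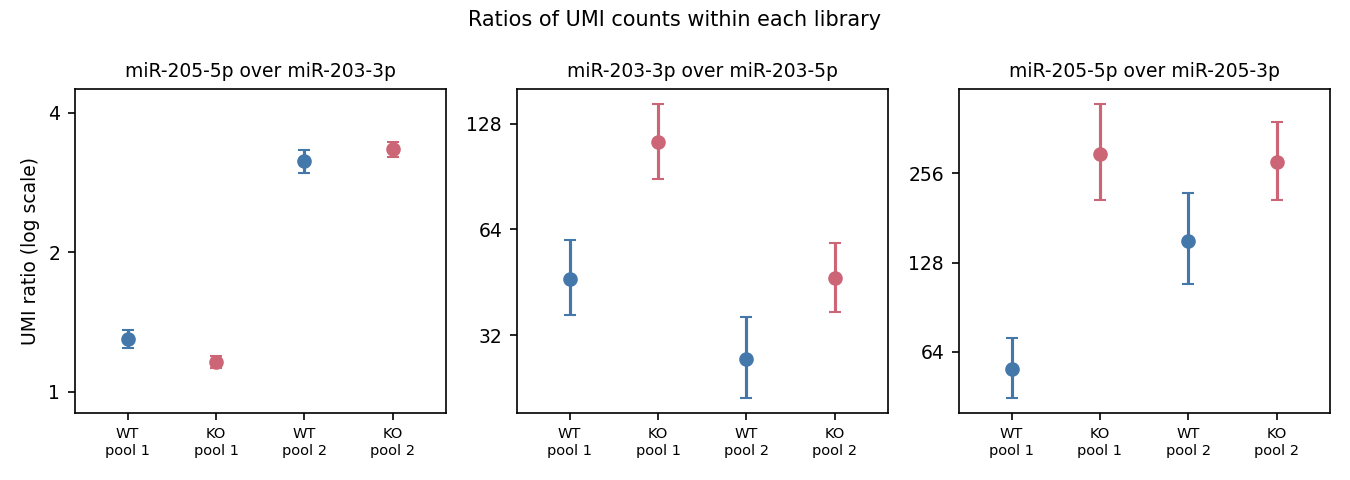
Ratios of UMI counts within each library (log axes, WT in blue, KO in red, bars for exact 95% intervals that cover counting error): miR-205-5p over miR-203-3p, miR-203-3p over miR-203-5p, and miR-205-5p over miR-205-3p. The first ratio separates pool 1 (1.16 and 1.30) from pool 2 (3.14 and 3.33), and the others are higher in KO than in WT within each pool number.

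Tested across all miRNAs by pool number, no member was called. edgeR's quasi-likelihood test called 211 of 1797 miRNAs (11.7%) between pool 2 and pool 1 at an adjusted p under 0.05. The estimate of miR-203-3p was -0.77 on the log2 scale (SE 0.45, adjusted p = 0.292), with 2101 ± 1261 CPM in pool 1 and 1229 ± 457 CPM in pool 2 (SD, n = 2 each). That of miR-205-5p was 0.67 (SE 0.43, adjusted p = 0.347), with 2518 ± 1339 CPM and 4008 ± 1648 CPM, and that of miR-203-5p was 0.34 (SE 0.22, adjusted p = 0.347). These values depend on scaling: with total UMIs the median over all miRNAs moved from -0.04 to -1.37, and the estimates became -2.05, -0.61 and -1.0 for miR-203-3p, miR-205-5p and miR-203-5p, the first and last then called by edgeR. Relative to that median, miR-203-3p was at -0.74 with TMM and -0.68 with total UMIs, miR-205-5p at 0.71 and 0.76, and miR-203-5p at 0.37 in both. Without KO pool 1 the TMM estimate of miR-203-3p was 0.02 and that of miR-205-5p 1.35, and without WT pool 1 that of miR-203-3p was -1.29. With a library left out, its pool number holds a single genotype. These estimates then carry the difference between genotypes that chose the members, so nothing is read from them.

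Other miRNAs known from skin were rare, and their ratios were smaller than those of the guide arms in the same pool. The guide arms were chosen by their ratios, so nothing is read from that order. The list held 11 names, of which 9 were counted, and the antisense arms miR-203b-3p and miR-203b-5p were not analysed here. Without the members, the 6 others had 10 to 267 UMIs each and together made up 0.0340% (WT) and 0.0283% (KO) of miRNA UMIs in pool 1, and 0.0124% and 0.0152% in pool 2. miR-184-3p, a miRNA of corneal and skin epithelium, went from 167 (WT) to 182 (KO) UMIs in pool 1 and from 153 to 267 in pool 2, with ratios of 1.13 in pool 1 and 1.28 in pool 2. miR-31-5p, which rises in keratinocytes of wounded or inflamed skin, went from 127 (WT) to 131 (KO) UMIs in pool 1 and from 75 to 70 in pool 2, with ratios of 1.07 and 0.684. Ratios were 1.08 and 1.02 for miR-31-3p, 0.604 and 0.835 for miR-184-5p, and 1.35 and 1.25 for miR-135b-5p. Ratios above 1 in both pools were seen for 3 of the 6 with TMM and 2 of the 6 with total UMIs, where the background was 24.5% and 24.4% of 1780 miRNAs. Of the 6, 3 had higher estimates in KO, beside 47.2% of all 1797 miRNAs, and the median log2 fold change was -0.05 beside -0.03 over all. So miR-203-3p and miR-205-5p were the only 2 of the list's 9 counted arms above 267 UMIs in any library, and the keratinocyte label rests on them alone. In plasma, more vesicles from a cell type and more of a miRNA in each cannot be told apart.

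The miR-200 family, the broadest set of epithelial miRNAs, was 10 arms with 35 to 1298 UMIs. Its share of miRNA UMIs was 0.212% (WT) and 0.275% (KO) in pool 1, and 0.0973% and 0.123% in pool 2, so that the KO library was higher within each pool number but WT pool 1 was above KO pool 2. The 5 guide arms were all higher in KO in pool 1, with ratios of 1.53 for miR-200a-3p, 1.66 for miR-200b-3p, 1.77 for miR-200c-3p, 1.38 for miR-141-3p and 1.69 for miR-429-3p. In pool 2 the same 5 were at 1.00, 1.02, 1.16, 1.35 and 0.879. Each of these 10 ratios was below that of miR-203-3p and of miR-205-5p in the same pool. As miR-203-3p and miR-205-5p were chosen by their ratios, nothing is read from this order. The 5 partner arms, with fewer UMIs, had pool 1 ratios of 0.723, 1.92, 0.625, 0.572 and 0.786 in the order of the guide arms above. In pool 2 they were at 1.02, 0.892, 1.40, 0.780 and 0.983. Of these miR-141-5p, at 0.572 and 0.780, had 184 (WT) and 101 (KO) UMIs in pool 1, and 62 and 66 in pool 2. Of the 10 arms 6 had higher estimates in KO, beside the background of 47.2%, with a median log2 fold change of 0.30 beside -0.03 over all. Arms above WT within each pool number were 4 of 10 with TMM and 6 of 10 with total UMIs, beside 24.5% and 24.4% of all miRNAs.

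Epithelial miRNAs of other organs were 12 in number, at 5 to 1816 UMIs. miR-375-3p, of gut and endocrine cells, had 578 (WT) and 499 (KO) UMIs in pool 1, and 1542 and 1816 in pool 2, with ratios of 0.899 and 0.863. miR-215-5p of the intestine had ratios of 1.01 and 1.71, miR-183-5p and miR-182-5p, a cluster of sensory epithelia, 1.36 and 1.15 and 1.07 and 1.21, and miR-34b-3p, known from ciliated airway cells, 0.585 and 0.835. The list's share was 0.181% (WT) and 0.164% (KO) in pool 1, and 0.103% and 0.135% in pool 2. Of its miRNAs, 7 of 12 had higher estimates in KO, beside 47.2% of all 1797 miRNAs, and the median log2 fold change was 0.25 beside -0.03 over all. Those above WT in both pools were 7 of 12 with TMM and 4 of 12 with total UMIs, beside 24.5% and 24.4% of all miRNAs. This count, like that of the miR-200 family, moved with the scaling. Lists of 6 to 12 miRNAs give coarse shares, and none of these counts was tested. Across these 3 lists edgeR's quasi-likelihood test called 0 of 6, 0 of 10 and 0 of 12 between genotypes, with 0 at an unadjusted p under 0.05 in each list by edgeR or by DESeq2, and DESeq2 called 0. The background was 0% as well, 0 of 1797 miRNAs, with 32 at an unadjusted p under 0.05 by edgeR and 28 by DESeq2. Between pool numbers edgeR called 2 of the 28, beside 11.7% of all 1797 miRNAs. Both were higher in pool 2: miR-375-3p (log2 difference 1.95, SE 0.29, adjusted p = 0.00657) and miR-34b-5p (1.57, SE 0.27, adjusted p = 0.0102).

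The miRNAs whose levels ran most like those of each guide arm were found by the root mean square difference of centred log2 CPM over the 4 libraries, among 350 others averaging at least 100 UMIs. Nearest to miR-203-3p were miR-485-3p (difference 0.19), miR-24-3p (0.28), miR-29b-3p (0.34), miR-195a-5p (0.36) and miR-23b-5p (0.36). Of these miR-24-3p was abundant, with 6636 (WT) and 10774 (KO) UMIs in pool 1, and 3831 and 6530 in pool 2. Nearest to miR-205-5p were miR-196a-5p (0.13), which is encoded in a Hox cluster, miR-382-5p (0.17), miR-541-5p (0.18), miR-152-3p (0.22) and miR-434-5p (0.24). The first had 132 (WT) and 282 (KO) UMIs in pool 1, and 160 and 327 in pool 2, with ratios of 2.22 and 1.5. No miRNA was on both short lists, and none belonged to the epithelial lists, while miR-24-3p is on the platelet and endothelial list used below. All of these nearest miRNAs had KO over WT ratios above 1 in both pools. The profiles hold the genotype difference that chose the members, so nothing is read from that. The guide arms were 0.70 apart from each other, which put miR-205-5p at place 152 from miR-203-3p and miR-203-3p at place 234 from miR-205-5p. With 4 libraries such an order is a description of these profiles.

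Markers of other tissues also moved between these libraries. Muscle miRNAs, led by miR-206-3p in mean UMIs over the libraries, went from 0.418% (WT) to 3.74% (KO) of UMIs in pool 1 and from 0.432% to 0.694% in pool 2. Myeloid miRNAs, led by miR-223-3p, went from 3.06% to 6.36% in pool 1 and from 1.57% to 1.79% in pool 2. Both shares were highest in KO pool 1. With TMM the KO over WT ratios were 20.85 in pool 1 and 2.03 in pool 2 for miR-206-3p, above those of both guide arms, and 2.79 and 0.717 for miR-223-3p. miR-206-3p does not stand for its list in pool 2. In pool 1 miR-1a-3p had more UMIs, 3972 (WT) and 30290 (KO) against 1305 and 26116 of miR-206-3p. The TMM ratios of miR-1a-3p were 7.94 in pool 1 and 0.968 in pool 2. Of the 8 muscle miRNAs, 7 had a ratio above 1 in pool 1 but 2 in pool 2. Those above 1 in both pools were 2 of 8 with TMM and 4 of 8 with total UMIs, beside 24.5% and 24.4% of all miRNAs. For the myeloid list they were 2 of 7 with TMM and 6 of 7 with total UMIs. Liver miRNAs, led by miR-122-5p, went from 11.4% to 7.49% in pool 1 and from 27.3% to 20.3% in pool 2, and the red blood cell list, led by miR-16-5p, from 47.2% to 38.4% and from 44.5% to 47.6%. The latter share follows miR-16-5p, which alone held 35.4% of miRNA UMIs in WT pool 1. Its KO over WT ratios were 0.832 and 1.15 with total UMIs, the scale of the share, and 0.94 and 0.964 with TMM. Of the 10 red blood cell miRNAs, 2 had ratios above 1 in both pools with TMM and 0 with total UMIs, beside 24.5% and 24.4% of all miRNAs. Platelet and endothelial miRNAs went from 2.63% to 3.88% and from 1.07% to 1.59%, and those of smooth muscle and stroma from 0.719% to 1.26% and from 0.617% to 0.452%. Ratios above 1 in both pools were seen for 5 of 7 platelet and endothelial miRNAs, with TMM and with total UMIs alike. They were seen for 1 and 2 of 6 of smooth muscle and stroma in these scalings, and for 0 of 7 of liver in both. Without the red blood cell list in the denominator, the share of miR-203-3p went from 0.389% to 0.730% and from 0.0935% to 0.203%, and that of miR-205-5p from 0.505% to 0.845% and from 0.294% to 0.675%, so KO stayed above WT within each pool number. The part of these other tissues in the difference of the guide arms was not tested.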

How the data were processed

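Small RNA libraries (QIAseq miRNA kit, ExoQuick precipitation of plasma, per the labels' protocols) were analysed from 4 plasma pools. The authors deposited UMI counts and read counts per mature miRNA, with no normalization, and a log2 value per library. The submitters' processing notes name FastQC 0.11.9 and GRCm38/mm10. The choice of aligner and counter was not given in the sources used here. UMIs over the 1809 miRNAs listed for both pool numbers came to 1577749 (WT) and 1709669 (KO) in pool 1, and to 3170219 and 3630249 in pool 2. Counts above 0 began at 10 in the pool 1 libraries, and at 1 (WT) and 2 (KO) in pool 2.

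All 1809 miRNAs entered TMM scaling, and the 1797 that passed edgeR's default filter were tested with edgeR 4.0.16 (R 4.3.3) by its two-sided quasi-likelihood F-test, where an adjusted p (Benjamini-Hochberg) under 0.05 was called a difference. Nothing says that the pools were drawn as independent groups of mice, so p-values measure the spread between these libraries. Standard errors were the log2 fold change divided by the square root of F. Ratios of 2 counts carry exact 95% binomial intervals. The edgeR fit was tested on simulated counts. DESeq2 1.42.0, other scalings and filters, read counts, a block on pool number and each library left out were alternatives. The authors' log2 values were added as an alternative after the data were seen. Members and lists were chosen with earlier results of these data known. Besides the members and their hairpins, the named miRNAs were the skin list, those of the other epithelial lists averaging at least 100 UMIs, the 5 nearest profiles and the leading miRNA of each list. Only some of the other epithelial miRNAs are given with values. miR-34b-5p, below that mean, was named after its call was seen, and miR-1a-3p after its counts were seen. Tables and figures used Python 3.11.15, pandas 2.3.3, SciPy 1.17.1 and matplotlib 3.10.9.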

Additional observations from a re-analysis of the deposited data

How the results depend on the processing

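With 2 libraries per genotype the main fits leave 2 residual degrees of freedom. Fits with a block on pool number, with genotype as a covariate or with a library left out leave fewer. The KO over WT estimates of miR-203-3p and miR-205-5p stayed above 0 under every alternative run, from 0.57 (without KO pool 1) to 1.5 (without KO pool 2) for miR-203-3p and from 0.63 to 1.46 for miR-205-5p, and that of miR-203-5p lay between -0.16 and 0.20. With pool number as a replicate block the estimates were 1.04 (SE 0.30), 1.00 (SE 0.28) and 0.02 (SE 0.20) for miR-203-3p, miR-205-5p and miR-203-5p. With the block 0 miRNAs were called, as without it. The members were chosen on this contrast, so neither the steady sign of the guide arms nor the standard errors carry a test. By TMM-scaled level each KO library lay above each WT library for both guide arms, so leaving out a library was not likely to turn the sign. Same-numbered libraries deviated together (correlation 0.550 across 1780 miRNAs), but the labels do not say that a number marks a shared batch. Within pools, scaling on total UMIs moved the ratios of miR-203-3p to 2.19 and 2.04 and those of miR-205-5p to 1.95 and 2.17 in pools 1 and 2, and the other 26 recomputed ratios stayed within the counting intervals, those from the authors' log2 values included. Called miRNAs between genotypes numbered 0 to 3 with a library left out (3 without KO pool 2, 2 without WT pool 2). Between pool numbers 195 to 248 were called with a library left out, 1394 with total UMIs, 105 of the 352 averaging at least 100 UMIs, 63 with genotype as a covariate, 132 with DESeq2 and 131 with read counts. For pool 2 against pool 1, total UMIs gave -2.05 for miR-203-3p and turned miR-205-5p to -0.61 and miR-203-5p to -1.0, and leaving out a library gave -1.29 to 0.02 for miR-203-3p and 0.17 to 1.35 for miR-205-5p. For total UMIs the shift of all miRNAs goes with these changes. With a library left out, its pool number holds a single genotype, so those estimates also carry the difference between genotypes. Any further cause was not tested.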

Other observations

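Reads per UMI, a measure of how often each tagged molecule was sequenced, differed by pool number for all miRNAs, at 5.29 (WT) and 5.70 (KO) in pool 1, and 1.69 and 2.11 in pool 2. miR-203-3p had 6.28 and 6.56 in the pool 1 libraries of WT and KO and 1.75 and 2.22 in those of pool 2, above the overall value in all 4. miR-205-5p had 5.85 and 6.26 in pool 1, above it, and 1.67 and 2.09 in pool 2, just below it. For miR-203-5p the values were 5.17 and 5.49 in pool 1 and 1.73 and 2.10 in pool 2. Ratios of KO over WT from reads were 2.46 and 1.71 for miR-203-3p and 2.25 and 1.79 for miR-205-5p in pools 1 and 2, near those from UMIs.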
